A study of Mus with 16 samples.

Results

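The genes described here are 8 members of the netrin guidance system, 3 ligands (*Ntn1*, *Ntn3*, and *Ntn4*) and 5 receptors (*Dcc*, *Neo1*, *Unc5b*, *Unc5c*, and *Unc5d*), out of 54219 genes in the count table. Of these, 35337 had a count in at least 1 animal and 17866 passed the filter on low counts, among them all 8 members. The receptors and the ligands *Ntn1* and *Ntn4* were chosen by family membership, whereas *Ntn3* was chosen by its measured change in mutants of both sexes and by the difference between the sexes. Its genotype contrasts are therefore given as a description with no p-value, and its calls there are counted among the members but support nothing. *Dcc* and *Unc5c* are also in the study's own list of changed genes, so their contrasts in males are no independent evidence.

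The samples were forebrains (cortex with hippocampus) of 16 mice at postnatal day 6, namely 4 *Kdm5c*-KO and 4 WT males with 4 *Kdm5c*-HET and 4 WT females. *Kdm5c* encodes a demethylase of histone H3 lysine 4 and lies on the X chromosome. The mutant allele lacks 2 exons removed with Cre, so hemizygous *Kdm5c*-KO males carry no intact copy and *Kdm5c*-HET females keep 1. All groups shared a mixed C57BL/6J and 129S1/SvImJ background and came from 3 litters. No group received a treatment according to the labels. The level of *Kdm5c* itself is not analysed here. Total counts per animal ranged from 21513783 to 30063352.

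Netrins are secreted, laminin-like proteins that steer growing axons and migrating neurons. DCC is the receptor through which netrin-1 attracts axons, and neogenin, its relative encoded by *Neo1*, also binds repulsive guidance molecules. Receptors of the UNC5 family turn the response into repulsion, alone or together with DCC. In the forebrain, netrin-1 and DCC are known for guiding callosal and other cortical axons, and UNC5 receptors are known from subsets of cortical neurons.

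In *Kdm5c*-KO males, 3 of the 8 members were called higher than in WT males (*Ntn3*, *Dcc*, and *Unc5c*), where a call is an adjusted p-value (q) under 0.1 in edgeR's quasi-likelihood test. Over all genes tested, 3.55% were called higher and 1.69% lower, and no member was called lower. In *Kdm5c*-HET females only *Ntn3* was called higher, against 0.481% of all genes, and no member was called lower, against 0.028%. Because *Ntn3* entered by these calls, and 2 more members were on the study's list for males, nothing is read from these shares. The median Log2FC of the 8 members was 0.16 in males and 0.073 in females, beside -0.0072 and -0.00080 over all genes tested. Both medians include *Ntn3*, and that of males also *Dcc* and *Unc5c*, so nothing is read from them either.

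**Figure D1:**
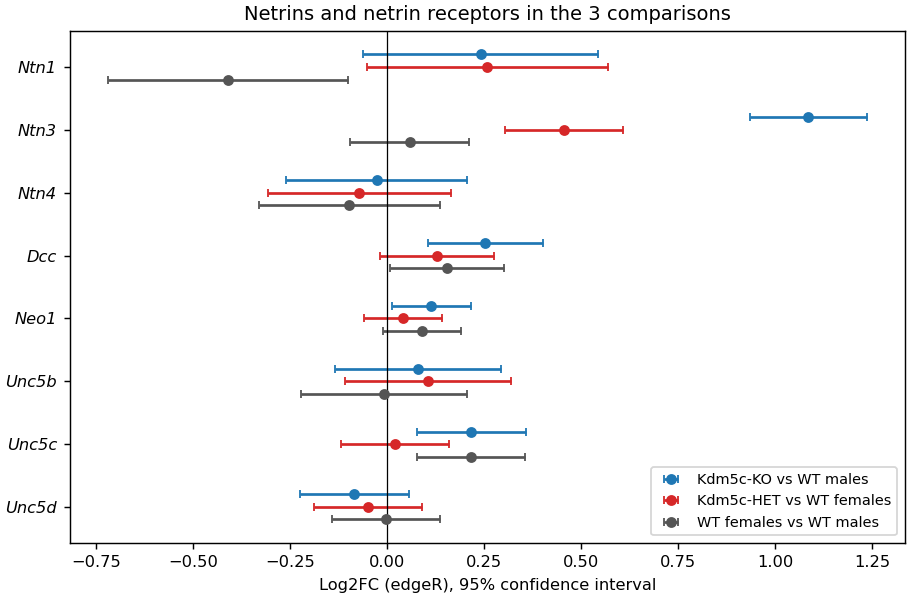
Log2FC of each member (x axis, log2 scale, from edgeR) with its 95% confidence interval in *Kdm5c*-KO against WT males, *Kdm5c*-HET against WT females, and WT females against WT males. *Ntn3* has the largest values of the 8 in both genotype contrasts, 1.09 in males and 0.46 in females, while *Unc5c* stands at 0.22 in males, at 0.02 in females, and at 0.21 between WT females and WT males.

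*Ntn3* (ENSMUSG00000117406; mm10 chromosome 17, 24203831 to 24209387) encodes netrin-3, a ligand that binds DCC family and UNC5 receptors and is known mainly from peripheral neurons and muscle. In WT males 2D, 5D, 7D, and 1E it stood at 22.3, 25.5, 24.3, and 21.3 CPM (counts scaled by TMM to a common library size), and in *Kdm5c*-KO males 4D, 6D, 2E, and 3E at 48.5, 52.3, 51.6, and 45.9 CPM. In WT females 1D, 3D, 4E, and 5E it stood at 24.6, 24.7, 22.3, and 25.6 CPM, and in *Kdm5c*-HET females 9D, 6E, 8E, and 9E at 32.9, 35.8, 35.3, and 29.4 CPM. Every mutant was thus above every WT animal of either sex, and every *Kdm5c*-KO male was above every *Kdm5c*-HET female. The order of the means ran from WT males (23.3 ± 1.90 CPM, SD, n = 4) and WT females (24.3 ± 1.40), whose ranges overlapped, through *Kdm5c*-HET females (33.3 ± 2.92) to *Kdm5c*-KO males (49.6 ± 2.99). These values rest on 461 to 739 counts per WT animal, 693 to 890 per *Kdm5c*-HET female, and 1184 to 1314 per *Kdm5c*-KO male.

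The Log2FC of *Ntn3* was 1.09 (SE 0.0720), or 2.12-fold, in *Kdm5c*-KO males and 0.46 (SE 0.0723), or 1.37-fold, in *Kdm5c*-HET females, so that on the log2 scale the female value was 42.0% of the male value. When single animals were left out, the male Log2FC stayed between 1.04 and 1.13 and the female Log2FC between 0.42 and 0.51. Among animals whose label carries the letter D, mean log2 CPM differed by 1.07 in males and 0.41 in females, and among those with the letter E by 1.19 and 0.48. The letter E holds 1 WT male and the letter D 1 *Kdm5c*-HET female, so the values 1.19 and 0.41 each rest on a single animal on that side. What the letter stands for is not given in the sources used here. In RefSeq on GRCm38.p6 the span of *Ntn3* shares 1732 bases with *Tbc1d24*, and the strand setting of the counting is not given in the sources used here, which leaves its counts uncertain to that extent. A change in the number of cells expressing a gene and a change in its RNA per cell cannot be told apart in these bulk samples, for any member.

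**Figure D2:**
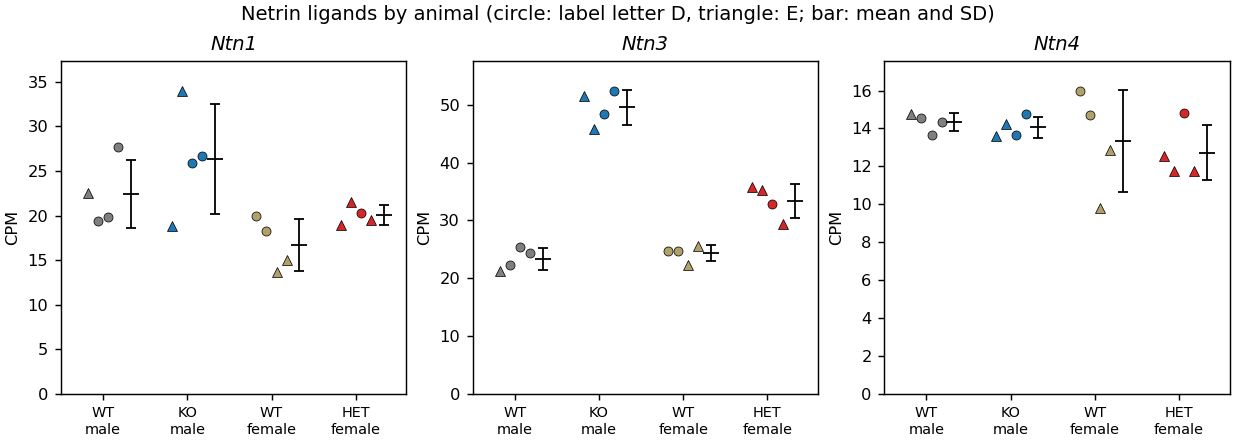
CPM (y axis, linear, from 0) of the 3 netrin ligands in each animal, with circles for label letter D, triangles for E, and a bar for the group mean and SD (n = 4). For *Ntn3* the *Kdm5c*-KO males lie between 45.9 and 52.3 CPM and the *Kdm5c*-HET females between 29.4 and 35.8, above all WT animals, whereas the mutant and WT ranges overlap within each sex for *Ntn1* and *Ntn4*.

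*Ntn1* (ENSMUSG00000020902; chromosome 11, 68209364 to 68386826) encodes netrin-1, the founding secreted ligand of the family. It stood at 19.4, 19.9, 27.7, and 22.6 CPM in WT males 2D, 5D, 7D, and 1E, and at 25.9, 26.6, 18.8, and 33.9 CPM in *Kdm5c*-KO males 4D, 6D, 2E, and 3E. The male groups overlapped, with both the lowest and the highest of these 8 animals being *Kdm5c*-KO. The Log2FC was 0.24 (SE 0.145, 95% interval -0.063 to 0.54, q = 0.439), within the spread between animals. It was 0.092 without *Kdm5c*-KO male 3E and 0.37 without *Kdm5c*-KO male 2E, and passed the test in neither fit (q = 0.843 and 0.193). In females, the values were 19.99, 18.2, 13.6, and 14.98 CPM in WT animals 1D, 3D, 4E, and 5E and 20.3, 18.9, 21.5, and 19.4 CPM in *Kdm5c*-HET animals 9D, 6E, 8E, and 9E. Every *Kdm5c*-HET female was above 3 of the 4 WT females, and 6E and 9E were below WT female 1D. The Log2FC of 0.26 (SE 0.149, 95% interval -0.053 to 0.57) did not pass the test (q = 0.898).

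*Ntn4* (ENSMUSG00000020019; chromosome 10, 93641049 to 93745972) encodes netrin-4, a basement membrane netrin that binds laminins and is known from blood vessels. It had the lowest coefficients of variation of the members in both male groups, 3.28% in WT and 3.82% in *Kdm5c*-KO animals, at 13.7 to 14.8 CPM in WT males and 13.6 to 14.7 CPM in *Kdm5c*-KO males, with a Log2FC of -0.028 (SE 0.112, q = 0.936). Females spread more widely, at 15.96, 14.7, 9.80, and 12.9 CPM in WT females 1D, 3D, 4E, and 5E, and from 11.7 to 14.8 CPM in *Kdm5c*-HET females. Within each female group the letter D animals were above the letter E animals, and the genotype contrast had a Log2FC of -0.072 (SE 0.113, q = 0.991). RefSeq places *Gm8580* and *Gm15915* within the span of *Ntn4* and *Mir6406* within that of *Ntn1*.

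*Dcc* (ENSMUSG00000060534; chromosome 18, 71253613 to 72351228) encodes the attractive netrin receptor. With all animals it was the receptor with the largest Log2FC in *Kdm5c*-KO males, but not without WT male 1E (0.244, against 0.245 for *Unc5c*). It stood at 56.1, 58.2, 63.9, and 58.1 CPM in WT males 2D, 5D, 7D, and 1E and at 65.4, 68.1, 71.4, and 76.4 CPM in *Kdm5c*-KO males 4D, 6D, 2E, and 3E. The male groups did not overlap. *Dcc* rose by a Log2FC of 0.25 (SE 0.0707, 95% interval 0.10 to 0.40, q = 0.0571 from edgeR), or 19.1%, and an exact two-sided permutation test of 4 animals against 4 gave p = 0.0286, the smallest it allows (0.314 after Benjamini-Hochberg adjustment over 22 such tests). Ranges did not overlap for 2 of the 8 members in males, *Ntn3* and *Dcc*, against 8.91% of all genes tested, and in females for 1, *Ntn3*, against 4.47%, from which nothing is read since both genes were on the study's list.

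The call of *Dcc* in males held in 11 of 16 leave-one-out fits, each without 1 animal. It was lost without WT male 2D (q = 0.167), WT male 5D (q = 0.136), WT male 1E (q = 0.106), *Kdm5c*-KO male 2E (q = 0.137), or *Kdm5c*-KO male 3E (q = 0.189), while the Log2FC stayed between 0.21 and 0.29. Within the letter D, the mean log2 CPM of 2 *Kdm5c*-KO males was higher than that of 3 WT males by 0.17, and within the letter E that of 2 *Kdm5c*-KO males was above the single WT male 1E by 0.35.

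In females, *Dcc* stood at 60.8, 61.2, 62.2, and 78.8 CPM in WT females 1D, 3D, 4E, and 5E, and at 72.3, 72.7, 71.1, and 70.9 CPM in *Kdm5c*-HET females 9D, 6E, 8E, and 9E. The *Kdm5c*-HET females agreed closely with each other (71.7 ± 0.883 CPM, SD, n = 4) and lay above 3 of the WT females but below WT female 5E. The contrast did not pass the test, with a Log2FC of 0.13 (SE 0.0703, 95% interval -0.019 to 0.27, q = 0.883 from edgeR). Without WT female 5E, the Log2FC was 0.22 (SE 0.0540) and q was 0.135, still above the threshold. The lowest leave-one-out value was 0.089, without WT female 1D.

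*Neo1* (ENSMUSG00000032340; chromosome 9, 58874679 to 59036614), the gene of the DCC relative neogenin, had the highest counts of the members, 9466 to 13241 per animal. It stood at 409, 425, 443, and 437 CPM in WT males 2D, 5D, 7D, and 1E and at 441, 463, 489, and 459 CPM in *Kdm5c*-KO males 4D, 6D, 2E, and 3E. Only WT male 7D and *Kdm5c*-KO male 4D overlapped, and the Log2FC of 0.11 (SE 0.0484, 95% interval 0.012 to 0.21) had an unadjusted p of 0.0306 but did not pass after adjustment (q = 0.249, edgeR). In females, *Neo1* ranged from 426 to 508 CPM in WT and from 455 to 481 CPM in *Kdm5c*-HET animals, with a Log2FC of 0.040 (SE 0.0484, q = 0.979). The highest WT female was again 5E, and the Log2FC was 0.094 without it and 0.0072 without WT female 3D.

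*Unc5c* (ENSMUSG00000059921; chromosome 3, 141465564 to 141834924) encodes a repulsive netrin receptor. It stood at 56.2, 58.9, 58.9, and 62.8 CPM in WT males 2D, 5D, 7D, and 1E and at 61.04, 69.7, 73.3, and 70.9 CPM in *Kdm5c*-KO males 4D, 6D, 2E, and 3E. All *Kdm5c*-KO males but 4D were above all WT males, and 4D was below WT male 1E. *Unc5c* rose by a Log2FC of 0.22 in *Kdm5c*-KO males (SE 0.0669, 95% interval 0.077 to 0.36, q = 0.0884 from edgeR), or 16.2%, and the exact two-sided permutation test gave p = 0.0571 (0.314 adjusted over the 22 tests).

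This call of *Unc5c* held in 8 of 16 leave-one-out fits, and its q ranged from 0.0290 to 0.258. Of the fits without a male, the call held only without WT male 1E or *Kdm5c*-KO male 4D. It was lost without WT male 2D (q = 0.234), 5D (q = 0.185), or 7D (q = 0.166), without *Kdm5c*-KO male 6D (q = 0.122), 2E (q = 0.258), or 3E (q = 0.208), and without WT female 4E (q = 0.105) or *Kdm5c*-HET female 6E (q = 0.102), which enter the fit through the shared spread. The Log2FC stayed between 0.18 and 0.27. In females, *Unc5c* stood at 65.6, 63, 70.9, and 75.4 CPM in WT females 1D, 3D, 4E, and 5E and at 65.3, 73.8, 74.6, and 64.8 CPM in *Kdm5c*-HET females 9D, 6E, 8E, and 9E. These ranges overlapped over most of their length, with a Log2FC of 0.020 (SE 0.0665, 95% interval -0.12 to 0.16, q = 0.998).

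*Unc5b* (ENSMUSG00000020099; chromosome 10, 60762594 to 60831581) encodes a repulsive netrin receptor known from blood vessels. It ranged from 15.02 to 16.7 CPM in the WT and 15.7 to 18.7 CPM in the *Kdm5c*-KO males. Among females, the WT range was 14.1 to 19.0 CPM and the *Kdm5c*-HET range 15.2 to 20.3 CPM. The Log2FC was 0.078 in males (SE 0.102, q = 0.767) and 0.11 in females (SE 0.102, q = 0.976), within the spread between animals in both. The male value was 0.018 without *Kdm5c*-KO male 3E, and the female value was 0.0036 without *Kdm5c*-HET female 9D and 0.20 without WT female 5E. *Unc5d* (ENSMUSG00000063626; chromosome 8, 28646717 to 29219671), the last of the UNC5 receptors described here, ranged from 74.4 to 88.8 CPM in WT males and from 68.8 to 86.1 CPM in *Kdm5c*-KO males, and its Log2FC of -0.085 (SE 0.0669, 95% interval -0.23 to 0.054) did not pass the test (q = 0.579), ranging from -0.14 without WT male 1E to -0.020 without *Kdm5c*-KO male 3E. In females it ranged from 80.7 to 88.2 CPM in WT and from 77.1 to 87.4 CPM in *Kdm5c*-HET animals, with a Log2FC of -0.050 (SE 0.0669, q = 0.983). RefSeq places no other gene within the spans of *Dcc*, *Neo1*, and *Unc5b*, 2 long noncoding RNA genes within that of *Unc5c*, and *Gm32505* within that of *Unc5d*.

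**Figure D3:**
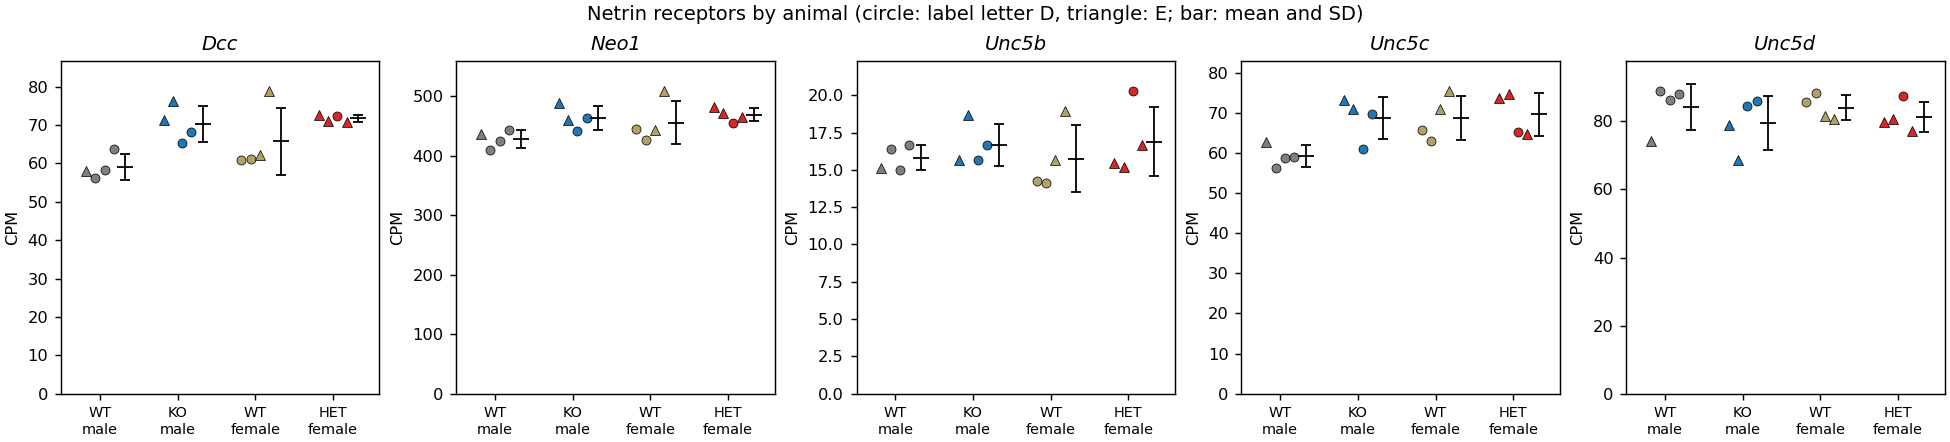
CPM (y axis, linear, from 0) of the 5 netrin receptors in each animal, with circles for label letter D, triangles for E, and a bar for the group mean and SD (n = 4). For *Dcc* all *Kdm5c*-KO males lie above all WT males (65.4 to 76.4 against 56.1 to 63.9 CPM), WT female 5E stands apart at 78.8 CPM, and for *Unc5c* the WT males are the lowest group.

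In *Kdm5c*-KO males, *Unc5c* was called higher, whereas *Unc5b* and *Unc5d* had Log2FC values of 0.078 and -0.085 with intervals that included 0. The interval of *Unc5b* (-0.14 to 0.29) overlapped that of *Unc5c*, while that of *Unc5d* (-0.23 to 0.054) lay below it. The count ratio of *Unc5d* to *Unc5c* within an animal was 1.43 ± 0.171 in WT males and 1.17 ± 0.182 in *Kdm5c*-KO males (SD, n = 4 each). These ranges overlapped, and the exact two-sided permutation test of the log2 ratios gave p = 0.0857 (0.286 adjusted over 10 tests of ratios). The pairs of members for these ratios were chosen after the values were seen.

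Ratios within an animal do not depend on the library scaling. The count ratio of *Neo1* to *Dcc* was 7.28, 7.29, 6.93, and 7.52 in WT males 2D, 5D, 7D, and 1E and 6.75, 6.80, 6.85, and 6.01 in *Kdm5c*-KO males 4D, 6D, 2E, and 3E. The *Kdm5c*-KO males were all lower, by 0.14 on the log2 scale, and the exact two-sided permutation test gave p = 0.0286, the smallest it allows, which became 0.286 after adjustment. *Dcc* alone already separated these groups and is on the study's list, so this ratio is no independent evidence. The adjustment covers only the pairs that were picked after the values were seen. In females, the means were 6.96 ± 0.368 in WT and 6.53 ± 0.159 in *Kdm5c*-HET animals, with overlapping ranges (exact p = 0.114, 0.286 adjusted). The count ratio of *Ntn3* to *Ntn1* was 1.98 ± 0.576 in *Kdm5c*-KO and 1.06 ± 0.186 in WT males, and 1.66 ± 0.161 in *Kdm5c*-HET and 1.48 ± 0.227 in WT females. The WT groups thus differed in this ratio by 0.48 on the log2 scale, although their ranges overlapped (exact p = 0.0571, 0.286 adjusted). The WT counts of *Ntn3* also enter the contrasts by which it was chosen, so this p is not free of that choice. Within females the ratio overlapped between the genotypes. The ratio of *Unc5c* to *Dcc*, the 2 receptors that passed the test in males, moved by -0.037 on the log2 scale between WT and *Kdm5c*-KO males (exact p = 0.657).

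**Figure D4:**
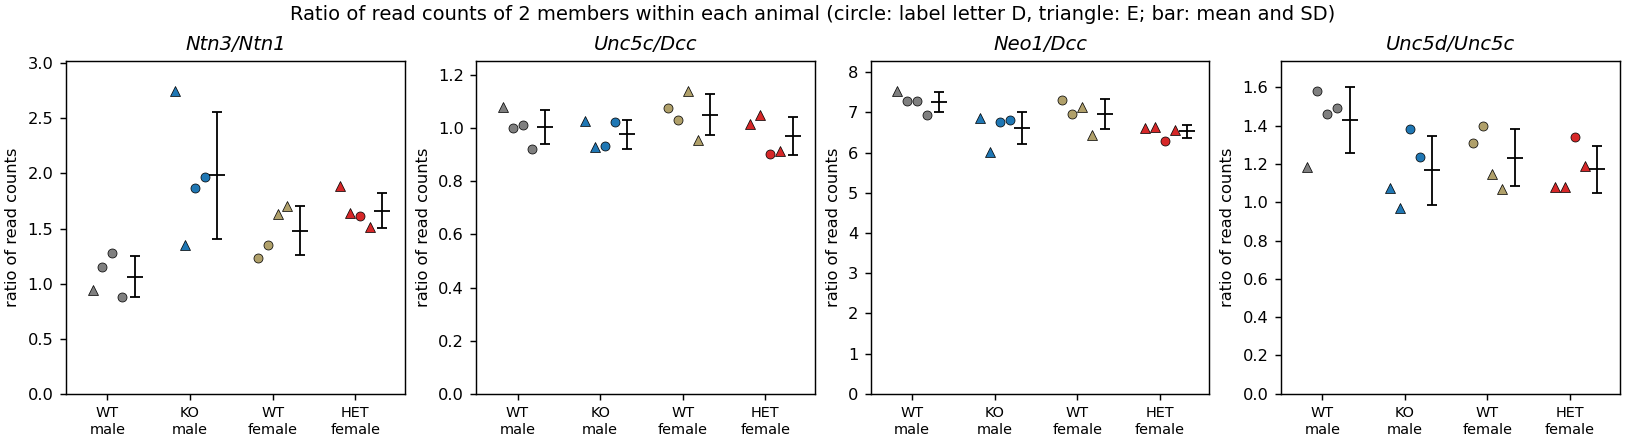
Ratio of read counts of 2 members within each animal (y axis, linear, from 0), with circles for label letter D, triangles for E, and a bar for the group mean and SD (n = 4). The ratio of *Neo1* to *Dcc* lies between 6.01 and 6.85 in *Kdm5c*-KO males, below the 6.93 to 7.52 of WT males, and the ratio of *Ntn3* to *Ntn1* spreads from 1.35 to 2.75 among *Kdm5c*-KO males.

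The difference of the genotype contrasts between the sexes (male Log2FC minus female Log2FC) was 0.63 for *Ntn3* (SE 0.102), a difference by which it was chosen. It was 1 of 8 members called for this difference, against 0.0392% of all genes tested, from which nothing is read. For *Unc5c* the difference was 0.20 (SE 0.0943, 95% interval -0.00079 to 0.39), with an unadjusted p of 0.0508 and q = 0.777 (edgeR), so that its call in males and its lack of one in females are not shown to differ. For *Dcc* the difference was 0.12 (SE 0.0997, 95% interval -0.084 to 0.33, q = 0.869), and 0.032 (SE 0.0734) without WT female 5E. The other 5 members had differences between -0.036 and 0.073, with q of at least 0.897. The upper end was *Neo1*, at 0.021 without WT female 5E.

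Between WT females and WT males, 1 of the 8 members was called, against 5% of all genes tested. This was *Unc5c*, which was higher in WT females by a Log2FC of 0.21 (SE 0.0668, 95% interval 0.075 to 0.35, q = 0.0967, edgeR), or 16.02%. The values of the 4 WT females began at 63 CPM and those of the 4 WT males ended at 62.8 CPM, so the ranges touched but did not overlap, and the exact two-sided permutation test gave p = 0.0286 (0.314 adjusted). *Unc5c* was the 1 member of 8 without overlap, against 10.6% of all genes tested, and nothing is read about the members from either share. Its means were 59.2 ± 2.70 CPM in WT males, beside 68.7 ± 5.51 in WT females, 69.6 ± 5.32 in *Kdm5c*-HET females, and 68.7 ± 5.34 in *Kdm5c*-KO males (SD, n = 4 each). Both calls of *Unc5c* share the same 4 WT males and are not independent of each other. The sex call held in 8 of 16 leave-one-out fits. Of the fits without a WT animal, the call held only without WT female 1D or 3D or WT male 1E. It was lost without WT female 4E (q = 0.199) or 5E (q = 0.304), without WT male 2D (q = 0.191), 5D (q = 0.231), or 7D (q = 0.188), and without *Kdm5c*-HET female 6E (q = 0.112), 8E (q = 0.105), or 9E (q = 0.106).

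**Figure D5:**
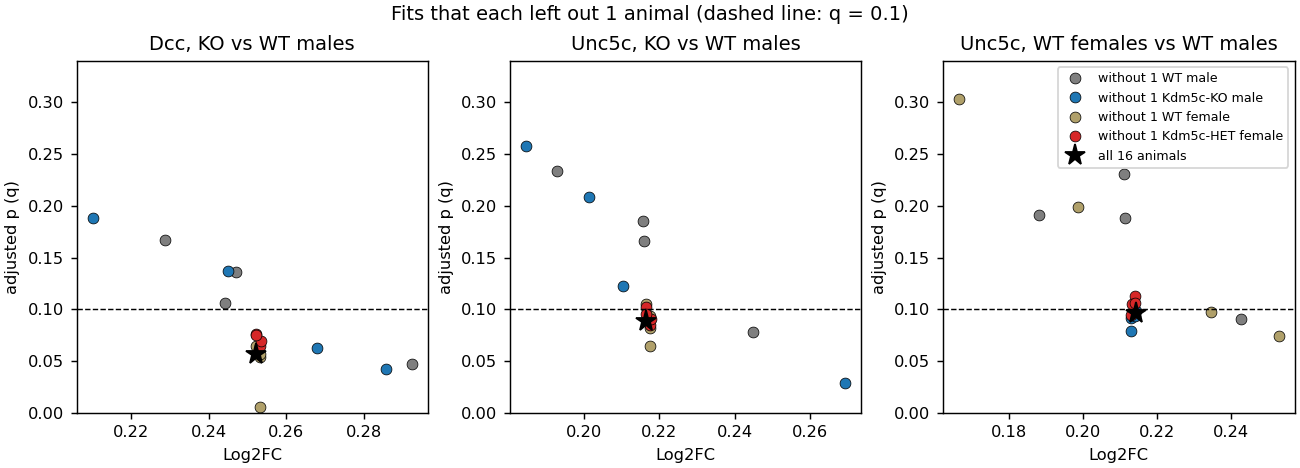
Adjusted p-value (q, y axis) against Log2FC (x axis) for *Dcc* and *Unc5c* in *Kdm5c*-KO against WT males, and for *Unc5c* in WT females against WT males, from edgeR fits that each left out 1 animal, coloured by the group of that animal, with a star for all 16 animals. The dashed line is q = 0.1, and 11, 8, and 8 of the 16 fits lie below it, while every Log2FC stays above 0. These fits include those that left out an animal outside the groups compared.

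*Ntn1* had a Log2FC of -0.41 in WT females against WT males (SE 0.148, 95% interval -0.72 to -0.10), which did not pass the test (unadjusted p = 0.0117, q = 0.144, edgeR). The difference in mean log2 CPM was -0.20 within the letter D (2 WT females, 3 WT males) and -0.66 within the letter E (2 WT females, 1 WT male). WT female 1D, at 19.99 CPM, overlapped WT males 2D and 5D. DESeq2 called this difference (q = 0.0485), as did edgeR with no filter on low counts (q = 0.00246) and 3 of 16 leave-one-out fits, those without WT female 1D (q = 0.0924), *Kdm5c*-KO male 2E (q = 0.0851), or *Kdm5c*-KO male 3E (q = 0.0978). *Dcc* had a Log2FC of 0.15 between the WT groups (SE 0.0708, q = 0.260) and *Neo1* of 0.089 (SE 0.0484, q = 0.346). Without WT female 5E these were 0.055 and 0.031. *Ntn3* differed by 0.057 (SE 0.0735, 95% interval -0.097 to 0.21, q = 0.732), so a sex difference of WT animals above 0.21 on the log2 scale lies outside its interval. These WT animals also enter the contrasts by which *Ntn3* was chosen, so its values here are a description. The other 3 members had Log2FC values between -0.098 and -0.0047, with q of at least 0.690.

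The label letter moved with several members across groups, a pattern chosen after the values were seen and given without a test. *Unc5d* ranged from 84.5 to 88.8 CPM in the 8 animals with the letter D and from 68.8 to 81.5 CPM in the 8 with the letter E, with no overlap in any of the 4 groups. *Unc5c* went the other way, and its letter E animals were above its letter D animals in 3 of the 4 groups, the exception being the *Kdm5c*-HET females. The animals with the letter E were 3 *Kdm5c*-HET and 2 WT females with 2 *Kdm5c*-KO males and 1 WT male. With the letter as a covariate in edgeR, the Log2FC in *Kdm5c*-KO males was 0.23 for *Dcc* (q = 0.0381) and 0.18 for *Unc5c* (q = 0.0384), and that of *Unc5c* between the WT groups was 0.18 (q = 0.0406).

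The choroid plexus is not part of cortex or hippocampus. Its transcripts were high in WT males 2D and 5D, but not in WT males 7D and 1E or in any *Kdm5c*-KO male. *Ttr*, which encodes transthyretin and is a defining gene of that tissue, stood at 201 CPM in both WT males 2D and 5D, at 181 and 191 CPM in WT females 1D and 3D, and at 84.5 and 57.7 CPM in *Kdm5c*-HET females 8E and 9E. In the other 10 animals, all *Kdm5c*-KO males among them, it was between 0.277 and 5.60 CPM. The summed level of the 2 choroid plexus markers with a known identifier (of 6 listed) ranged from 1.48 to 205 CPM in WT males and from 1.98 to 2.82 CPM in *Kdm5c*-KO males. The other marker, *Aqp1*, stood at 3.48 and 3.03 CPM in WT males 2D and 5D and at 0.762 and 1.2 CPM in 7D and 1E. It did not follow *Ttr* in all *Kdm5c*-HET females. *Aqp1* was 2.64 CPM in 9D, where *Ttr* was 0.669 CPM, and 1.02 CPM in 9E, where *Ttr* was 57.7 CPM. Without the 6 animals above 50 CPM, an exclusion chosen after seeing the data, *Ntn3* had a Log2FC of 1.12 (SE 0.0936) in males and 0.52 (SE 0.104) in females, and a difference of 0.60 (SE 0.139) between the sexes, of which only the male value was still called. Under the same exclusion, in males *Dcc* had a Log2FC of 0.21 (SE 0.0897, q = 0.546) and *Unc5c* of 0.18 (SE 0.0796, q = 0.573, edgeR), both no longer called with 2 WT males left, and the part of the choroid plexus in those calls was not tested. Between the WT groups, *Unc5c* had a Log2FC of 0.26 (SE 0.0913, q = 0.294) and *Ntn1* of -0.81 (SE 0.201, q = 0.273), neither of them called. *Ntn1* had a Log2FC of 0.069 in males (SE 0.168) and 0.45 in females (SE 0.201), also not called (q = 0.958 and 0.781). In females, *Dcc* had a Log2FC of 0.037 (SE 0.102, q = 0.973), beside 0.13 with all animals.

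The markers with an identifier (12 of 68 listed in all, the 2 of the choroid plexus included) were read beside the members. Their identifiers came from the same table of changed genes as those of the guidance lists, so the counts of calls among them are fixed by that choice and say nothing about the cell types. *Rbfox3*, a neuronal marker, stood between 216 and 275 CPM in the 16 animals. In *Kdm5c*-KO males, 7 of the 12 were called lower (1.69% of all genes tested were), among them *Rbfox3* (Log2FC -0.19, q = 0.0642) and the haemoglobin gene *Hba-a1* (-0.59, q = 0.00131), and 1, *Prkcd* of the thalamus list, was called higher (0.53, q = 0.00505). *Rora*, the other thalamus marker with an identifier, had a Log2FC of -0.30 (q = 0.103), so the list did not move in 1 direction. None was called in *Kdm5c*-HET females. Between WT females and WT males, where *Unc5c* was also called, *Hba-a1* (Log2FC -0.40, q = 0.0417, edgeR) and *Hba-a2* (-0.54, q = 0.0519) were called lower in the females. The part of these differences in the values of *Dcc* and *Unc5c* was not tested.

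Of the genes in lists of netrin partners (17), netrin receptor signalling (22), Slit and Robo proteins (9), semaphorins with their receptors (31), and ephrins with theirs (22), 9 could be paired with an identifier, through a table that the study compiled from changed genes, so their counts say nothing about the lists. No netrin partner and no signalling gene was among them. Of the 9, 5 were called higher in *Kdm5c*-KO males, the Slit receptor *Robo1* (Log2FC 0.28, SE 0.0618, q = 0.0146) and, of the ephrin system, the ligand *Efnb2* (0.32, SE 0.0652, q = 0.00791) and the receptors *Epha5* (0.17, SE 0.0426, q = 0.0259), *Epha7* (0.22, SE 0.0468, q = 0.00880), and *Epha10* (0.28, SE 0.0838, q = 0.0723). Another 2 were called lower, the semaphorin *Sema7a* (-0.20, SE 0.0546, q = 0.0449) and the plexin *Plxnd1* (-0.12, SE 0.0371, q = 0.09996). *Dcc* and *Unc5c*, at 0.25 and 0.22, were of a size within that of these 5 genes, and none of the 9 was called in *Kdm5c*-HET females.

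The genes whose pattern was most like that of *Ntn3* over the 16 animals, by Pearson's r of log2 CPM among 1092 tested genes with a symbol in the study's table of changed genes, were *Otol1* (r = 0.972), *Tex14* (0.966), *Rasip1* (0.965), *Itprid1* (0.965), and *Cldn3* (0.965). These 5 were also the first 5 among all 17865 other genes tested. The 16 points share 4 group means, and r of the deviations from the group means was lower, from 0.0813 for *Tex14* to 0.690 for *Itprid1*. By that measure the first 5 with a symbol were others, *Rpp25* (r = 0.863), *Nrip1*, *Mgat4c*, *Efr3b*, and *Cpne5* (0.721). By Spearman's rho, *Itprid1* was the only 1 of the 5 that was again among the first 5. Among the members, r with *Ntn3* ranged from -0.26 for *Unc5d* to 0.58 for *Dcc*, and of the deviations from -0.17 for *Unc5b* to 0.49 for *Unc5d*.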

How the data were processed

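Poly(A)-enriched mRNA-seq libraries were made for 16 forebrains in a single batch. The authors deposited raw counts per Ensembl gene, made from mm10 alignments (STAR 2.5.3a and featureCounts of Subread 1.5.0 per the submitters' processing notes, which also name deepTools 3.1.3) of uniquely mapped reads after removal of duplicates. The strand setting is not given in the sources used here. No column was left unused. The members and lists were chosen with earlier results of these data known. Every member is named. Of the guidance lists, the called genes are named, and the 5 genes most like *Ntn3*. Marker genes named beside these, the ratios, and the pattern by label letter were chosen after their values were seen. Counts were filtered with filterByExpr, normalized with TMM, and fitted with edgeR 4.0.16 (R 4.3.3) by glmQLFit, with 1 mean per group over all animals and no covariate. glmQLFTest gave the p-value of each contrast, adjusted over 17866 genes after Benjamini and Hochberg (threshold 0.1). SE is the absolute Log2FC divided by the square root of F. Log2 CPM used a prior count of 2. Exact tests compared mean log2 CPM or log2 ratios of 4 against 4 animals. CPM is not divided by transcript length, so CPM levels were compared only within a gene. Counts and count ratios of different members also depend on transcript length, and the ratios were compared only between animals. Over the 24 pairs of animals within groups, the chi-square statistic per gene was 2.89 to 15.2, above sampling noise, and each animal counted as 1 replicate. The fit was tested on simulated data. Alternatives were DESeq2 1.42.0, its size factors, no filter, at least 10 counts in every animal, only the groups compared, the label letter as covariate, q under 0.05, leaving out each animal, and leaving out WT males 2D and 5D. Leaving out 6 animals with *Ttr* above 50 CPM was added after seeing the data. Identifiers of *Ntn3* and other named genes came from the study's table of changed genes, and spans from RefSeq (GRCm38.p6). No sequence is shown, some marker genes are not reported here, and *Kdm5c* is not analysed here.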

Additional observations from a re-analysis of the deposited data

Results flagged for a closer look

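*Dcc* in WT female 5E stood at 78.8 CPM, far from the 60.8 to 62.2 CPM of the other WT females. The gap to the nearest animal was 0.924 of the range of the group, above Dixon's 95% critical value for 4 samples. Of 32 combinations of member and group this was the only one past that value, and chance passes it in about 1 of 20. The same animal was the highest WT female for 5 of the 8 members (*Ntn3*, *Dcc*, *Neo1*, *Unc5b*, and *Unc5c*).

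The Log2FC of *Ntn3* was larger in males than in females by 0.63 (SE 0.102). *Ntn3* was chosen by this difference, which is a description here.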

How the results depend on the processing

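The number of members called in males was 1 (*Ntn3*) in place of 3 at q under 0.05, without WT males 2D and 5D, and without the 6 animals with high *Ttr*, and 1 to 3 without single animals. Without those 6 animals it was 0 in females, 0 for the difference between the sexes, and 0 between the WT groups, and without WT males 2D and 5D it was 0 for the latter 2. Between the WT groups it was 2 with DESeq2 and with no filter, 0 at q under 0.05, and 0 to 2 without single animals. These exclusions leave 2 WT males, and the cause was not tested otherwise.

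The Log2FC of *Ntn3* stayed between 1.04 and 1.13 in males, 0.42 and 0.52 in females, and 0.57 and 0.68 for the difference, under all alternatives that were run. Only values that were not called changed sign. Without single animals, the difference between the sexes ranged from -0.17 to 0.11 for *Ntn1*, -0.051 to 0.16 for *Ntn4*, -0.12 to 0.076 for *Unc5b*, and -0.091 to 0.029 for *Unc5d*. In females, the Log2FC ranged from -0.19 to 0.024 for *Ntn4* and -0.022 to 0.064 for *Unc5c*. Between the WT groups, it ranged from -0.20 to 0.021 for *Ntn4*, -0.11 to 0.038 for *Unc5b*, and -0.060 to 0.019 for *Unc5d*. With the letter as covariate, *Ntn4* was 0.020 in males, *Unc5c* -0.015 in females, and *Unc5d* 0.039 between the WT groups. Without WT males 2D and 5D, *Unc5d* was 0.021 for the difference and 0.051 between the WT groups. Without the 6 animals, in females *Ntn4* was 0.27, *Neo1* -0.027, *Unc5c* -0.076, and *Unc5d* 0.040, the difference was -0.32 for *Ntn4*, 0.028 for *Unc5b*, and -0.38 for *Ntn1* (-0.017 with all animals), and *Unc5b* was 0.12 between the WT groups. No paired analysis was possible because the numbers in the labels name animals and no animal is in more than 1 group. The letter, which all groups share, was fitted as a covariate.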
